A study of Mus musculus with 21 samples.

Results

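Hematopoietic stem cells (HSCs) from mice given 5-fluorouracil (5-FU) once were compared with those from mice given it 3 times, each against its own PBS control, to find the genes whose response differed between the first and the third administration. The members were chosen by their labels: 12 of the 21 libraries of the series, in 4 groups of 3, all collected on day 6, which was 5 days after the last injection. Wild type mice, 10 weeks old at the start, received 5-FU at 150 mg/kg or PBS intraperitoneally, either once or 3 times at intervals of 21 days. These groups are called 5-FU once, PBS once, 5-FU 3 times and PBS 3 times below. Each library was made from 3000 to 3500 bone marrow cells sorted as CD150+CD48-Lineage-Sca-1+c-Kit+. Mice in the repeated groups were older at collection than those injected once, in the PBS and the 5-FU arm alike. The column names of the 12 libraries carry a suffix in the groups injected once that is absent in those injected 3 times. The labels do not say what it marks, and any preparation batch that went with the round cannot be told apart from it. By the study's methods, the sort after 5-FU left out the Mac-1 antibody and widened the gate to c-Kit-dim cells, so gate and drug cannot be told apart within either round. The methods describe the replicates as independent experiments.

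5-FU is a pyrimidine analog that blocks thymidylate synthesis and is incorporated into RNA, and it kills dividing blood progenitors while sparing most quiescent HSCs. The surviving HSCs are known to enter the cell cycle some days later to rebuild the marrow, and then to return to quiescence. HSCs express a share of the genes of the megakaryocyte lineage, the source of platelets, and HSCs with more of these transcripts are known as platelet-biased.

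The tested quantity was the interaction, the log2 fold change of 5-FU against PBS after 3 administrations minus that after 1. A value above 0 means a stronger rise, or a weaker fall, after the third administration. Levels are given as normalized counts, the gene's count divided by the library's scaled size relative to the mean of the 12 libraries. "Rose", "fell" and "called" mean an adjusted p under 0.05 in edgeR's quasi-likelihood F test with Benjamini-Hochberg adjustment over all genes tested.

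Depth moved with the number of injections, from 22184885 to 27771296 counts in the groups injected once and from 27023725 to 38649033 in those injected 3 times, and its part in the results was not tested beyond thinning all libraries to the smallest total, which gave 84 calls in place of 86. The calls were not all the same ones: Aqp1, Dlk1, Esm1, Kif11, Plk1 and Tmem176a, all described below, lost theirs after thinning. All 22 HSC markers were detected in every group, and their summed level was 7364 to 7674 CPM (counts scaled to a common library total) after PBS once, 5801 to 5908 after 5-FU once, 7405 to 7628 after PBS 3 times and 4498 to 4966 after 5-FU 3 times. Markers of other cells were also detected. The summed neutrophil list was at 223 to 308 CPM in the PBS groups and 121 to 188 in the 5-FU groups, the monocyte, macrophage and dendritic list at 260.4 to 371 over all libraries, the B-cell list at 42.3 to 81.4 and the T and NK cell list at 32.6 to 69.4, while Cd3e, Pax5 and Rag1 were at 0 in all 12 libraries. The part of such cells in the results was not tested. In bulk samples such as these, fewer cells of a type and less RNA per cell cannot be told apart.

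Many genes responded to 5-FU in both rounds. 5-FU changed 2907 of 13227 genes (22.0%) after 1 administration, with 11.7% that rose and 10.3% that fell, and 3067 (23.2%) after 3, with 12.8% and 10.4%, and 1565 genes were called in both (53.8% of those after 1 administration and 51% of those after 3), of which 1541 changed in the same direction. The interaction was called for 86 genes, 0.650% of those tested, 45 of them above 0 (0.340%) and 41 below (0.310%). At an unadjusted p under 0.05 there were 1954 genes, and the median size of the interaction was 0.99 on the log2 scale among the 86 and 0.22 over all genes. With library size as the only scaling the count was 111 and the split became 39 above and 72 below 0, with the median of all genes shifted by -0.07 (and by -0.12 in the effect after 3 administrations). The count ranged from 38 to 170 when single libraries were left out, was 715 with DESeq2, and was 0 with the replicate number as a block within each round and 55 with the same numbers shared by all groups. A single fit of all 21 libraries gave 79, of which 55 were among the 86. Of 60 called genes tested under each alternative, 0 passed in all that kept every library. That count was fixed by the block within each round, which called no gene, and says nothing of single genes. Some, such as Itga2b and Cdk6, passed in 8 of the 9 alternatives that kept every library, and others in fewer.

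The 86 genes showed several shapes. For 28 of them the effect of 5-FU was called only after 1 administration, with 12 that rose and 16 that fell. For 26 it was called only after 3, with 13 that rose and 13 that fell. In 16 genes both effects were called with the same sign, of which 10 changed less after 3 administrations and 6 more. In the other 16 (0.121% of genes tested), both effects were called with opposite signs, 6 having risen after the first and fallen after the third and 10 the reverse. The difference lay mostly between the 2 groups given 5-FU: 5-FU 3 times against 5-FU once was called for 72 of the 86, against 4.19% of all genes (2.49% higher and 1.69% lower), while PBS 3 times against PBS once was called for 5, against 0.129% (0.106% higher and 0.0227% lower). These 2 comparisons use the same libraries as the interaction and are given as descriptions.

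**Figure D1:**
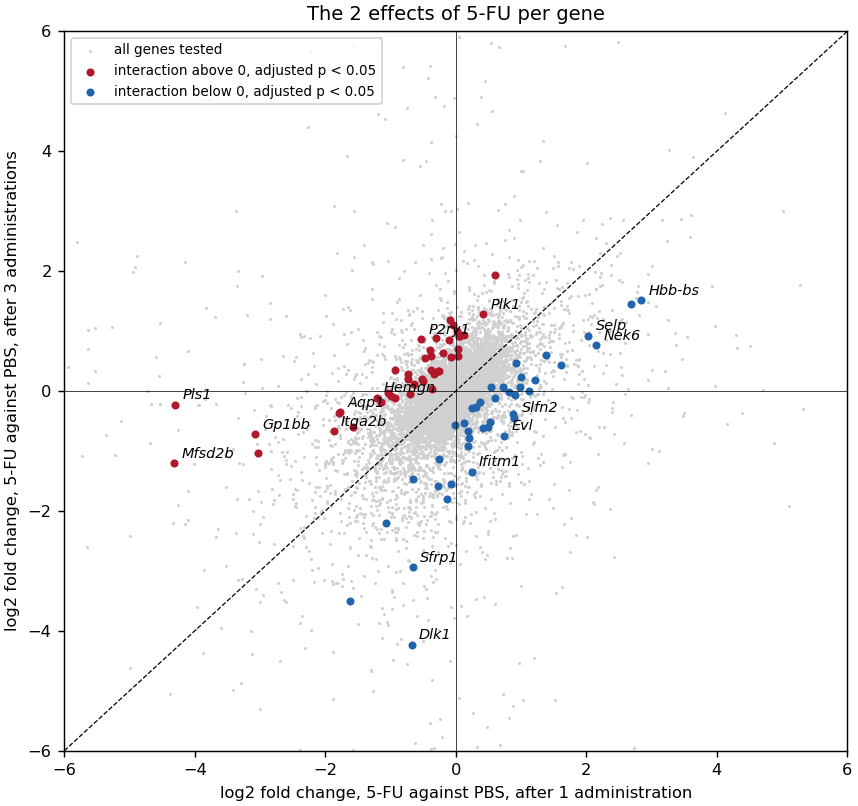
Each point is a gene, with the log2 fold change of 5-FU against PBS after 1 administration on the x axis and after 3 on the y axis. Red and blue points are genes with an interaction above and below 0 at an adjusted p under 0.05, gray points are all genes tested, and the dashed line marks equal effects. Most genes lie along the line, while Mfsd2b, Gp1bb and Itga2b lie above it at the left and Hbb-bs, Selp and Nek6 below it at the right. In all, 180 genes, 3 of them called, lie outside the axes.

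Several platelet and red cell genes had an interaction above 0. They fell after the first administration and after the third fell less or did not pass the test. Itga2b (chromosome 11, 102453297 to 102470122 on GRCm38), which encodes CD41, the integrin subunit of the platelet fibrinogen receptor, had 2218, 2099 and 2471 normalized counts in the PBS once libraries, 631, 528 and 697 after 5-FU once, 2023, 2290.1 and 2242 after PBS 3 times and 1451, 1363 and 1304 after 5-FU 3 times. The 4 groups did not overlap apart from the PBS groups with each other, and the 5-FU 3 times libraries lay between those of 5-FU once and the controls. Its effect of 5-FU was -1.87 (adjusted p = 6.03e-06) after 1 administration and -0.67 (adjusted p = 0.00116) after 3, an interaction of 1.20 ± 0.15 (SE), adjusted p = 0.0149. Treml1, a receptor stored in platelet granules, had 556, 468 and 572 normalized counts in the PBS once libraries, 73.0, 42.2 and 79.6 after 5-FU once, 521, 509 and 393 after PBS 3 times and 300.3, 210.2 and 182 after 5-FU 3 times. It fell in both rounds, with effects of -3.04 and then -1.04, with an interaction of 2.00 ± 0.33 (SE), adjusted p = 0.0242. Gp1bb, a subunit of the platelet receptor for von Willebrand factor, fell after the first administration (-3.07) and was at -0.72 (adjusted p = 0.0981) after the third, with an interaction of 2.35 ± 0.44 (SE), adjusted p = 0.0408. In the GENCODE annotation 92.9% of its exonic bases are shared with Sept5 and a read-through transcript on the same strand, so its counts are uncertain.

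Gp5, another subunit of the same receptor complex and in no list, was added after its values were seen. It had 718, 539 and 642 normalized counts in the PBS once libraries, 163, 159 and 228 after 5-FU once, 588, 739 and 637 after PBS 3 times and 576, 434 and 509 after 5-FU 3 times, and its interaction was 1.42 ± 0.24 (SE), adjusted p = 0.0242. The 5-FU 3 times libraries lay just below the PBS 3 times libraries and overlapped those of PBS once, and the effect after the third administration did not pass the test (-0.37). Over the whole list of megakaryocyte and platelet genes, 21 of 22 could be tested, 3 were called with an interaction above 0 (Itga2b, Treml1 and Gp1bb) and 1 below (Selp, described later). In this list 13 genes fell after the first administration and 8 after the third, and 15 of the 21 interactions were above 0, with a median of 0.23 against -0.00 over all genes. Vwf, the von Willebrand factor, and Mmrn1, with interactions of -0.00 and -0.32, were among those not called. The summed level of the list was 688 to 775 CPM after 5-FU once and 666 to 774 after 5-FU 3 times, against 1211 to 1302 in the PBS groups. The sum thus did not separate the 2 groups given 5-FU, but Mmrn1 made up much of it. Mmrn1 was at 345 to 390 CPM after 5-FU once and 212 to 302 after 5-FU 3 times. Gene by gene, 5-FU 3 times against 5-FU once was called higher for 7 of the 21 and lower for 1. The share over all genes was 2.49% higher and 1.69% lower. The median of this comparison was 0.51 in the list and -0.00 over all genes.

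The same shape was seen in red cell genes. Mfsd2b, the exporter of sphingosine 1-phosphate in red cells and platelets, had 779, 758 and 915 normalized counts in the PBS once libraries, 74.2, 27.4 and 22.9 after 5-FU once, 737, 878 and 749.7 after PBS 3 times and 443, 248 and 338 after 5-FU 3 times. It fell by more after the first administration (-4.32) than after the third (-1.20), with an interaction of 3.12 ± 0.45 (SE), adjusted p = 0.0170. Aqp1, the water channel of the red cell membrane, had 414, 375 and 474 normalized counts in the PBS once libraries, 110.1, 119 and 141 after 5-FU once, 482, 508 and 397 after PBS 3 times and 428, 262 and 397 after 5-FU 3 times, and it fell only after the first administration. Its interaction was 1.42 ± 0.26 (SE), adjusted p = 0.0394, which passed the threshold in 1 of 12 fits that left out a library. Hemgn, a nuclear protein of early blood cells and a target of GATA1, had 540.0, 595 and 566 normalized counts in the PBS once libraries, 274, 239 and 219 after 5-FU once, 439, 452 and 450.0 after PBS 3 times and 388, 371 and 479 after 5-FU 3 times. Its 5-FU once libraries lay below all others, and the interaction was 1.10 ± 0.16 (SE), adjusted p = 0.0170. The PBS 3 times libraries of Hemgn lay below those of PBS once, without a call. Gata1 and Klf1, the master regulators of red cell genes, had interactions of 1.37 and 2.17 and were not called (adjusted p = 0.137 and 0.141). The erythroid list as a whole went both ways, with 1 of 14 tested genes called above 0 (Aqp1) and 2 below (both globin genes described later).

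P2ry1, the platelet ADP receptor, changed direction between rounds. It had 607, 589.8 and 563 normalized counts in the PBS once libraries, 472, 397 and 349 after 5-FU once, 461, 393 and 479 after PBS 3 times and 941, 842 and 649 after 5-FU 3 times. 5-FU lowered P2ry1 after 1 administration (-0.53) and raised it after 3 (0.87), with an interaction of 1.40 ± 0.21 (SE), adjusted p = 0.0170. However, 23.1% of its exonic bases overlap an antisense transcript that unstranded counting cannot separate. The control level of P2ry1 moved too, since the PBS 3 times libraries lay below those of PBS once, without a call. Calls for Itga2b, Mfsd2b, Hemgn and P2ry1 were kept in each of the 12 fits that left out a library, those for Treml1 in 9 and for Gp1bb in 2.

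**Figure D2:**
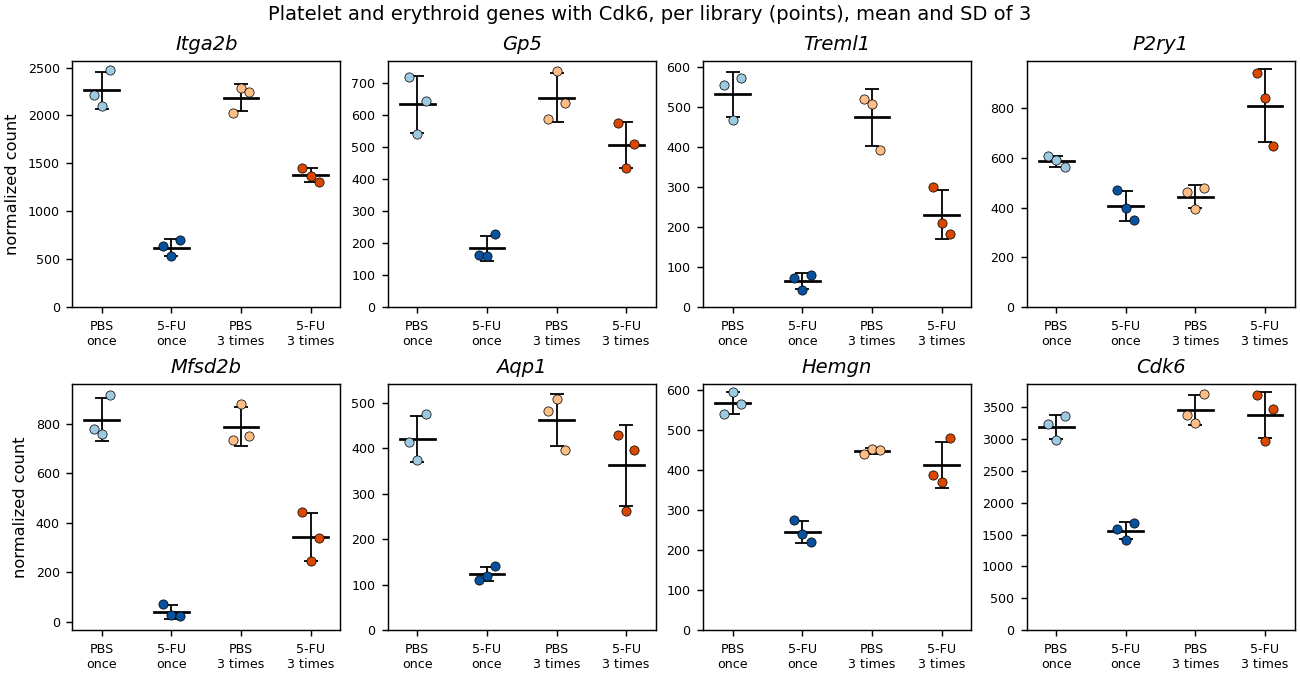
Normalized counts (y axis, linear) of 8 genes in each of the 12 libraries (points), with the mean (horizontal line) and SD (whisker) of the 3 libraries per group on the x axis. In 7 of the panels the 5-FU once libraries are the lowest, and in P2ry1 the 5-FU 3 times libraries are the highest. Itga2b reads 528 to 697 after 5-FU once and 1304 to 1451 after 5-FU 3 times.

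The promoters of Gp5 and Hemgn are shown because, of the called platelet and red cell genes described above, they hold the letters AGATAA, a form of the site read by GATA factors, in the window of 250 bases before to 50 after the start (RefSeq, GRCm38.p6). Capitals mark these letters on either strand. The Gp5 window (chr16:30310732-30311031, minus strand) holds 2 matches, starting 93 and 77 bases before the start, and the Hemgn window (chr4:46404134-46404433, minus strand) holds 1 that starts at base 29 after it.
Gp5: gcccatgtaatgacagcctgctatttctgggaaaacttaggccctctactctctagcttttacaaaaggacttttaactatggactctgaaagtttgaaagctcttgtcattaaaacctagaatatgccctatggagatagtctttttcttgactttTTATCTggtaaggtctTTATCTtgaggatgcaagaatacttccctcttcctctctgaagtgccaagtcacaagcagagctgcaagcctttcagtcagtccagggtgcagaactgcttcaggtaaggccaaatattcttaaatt
Hemgn: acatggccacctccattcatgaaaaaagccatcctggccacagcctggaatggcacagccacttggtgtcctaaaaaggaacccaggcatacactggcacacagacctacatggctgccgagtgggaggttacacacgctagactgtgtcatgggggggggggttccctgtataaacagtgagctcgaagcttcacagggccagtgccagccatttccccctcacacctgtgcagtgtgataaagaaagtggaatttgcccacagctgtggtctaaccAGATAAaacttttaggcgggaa
The windows of Itga2b, Gp1bb, Treml1, Aqp1, Mfsd2b and P2ry1 held no match. Those of Fyb, Hbb-bs, Pde2a, Serpinf1, Serpina3i, Serpina3g, Setdb1 and Mfsd13a, described later, held 1 each. Of 18 promoters of the megakaryocyte and platelet list, 27.8% held the letters, against 11.4% of all 27025 promoters. Among 40 promoters of genes with an interaction above 0 the share was 12.5%, and among 34 of genes below 0 it was 14.7%, both near that of all promoters.

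Other genes of varied function fell after the first administration and did not pass the test after the third. Cdk6, the kinase that drives exit from quiescence with D-type cyclins, had 3235, 2981 and 3363 normalized counts in the PBS once libraries, 1588, 1412 and 1681 after 5-FU once, 3382, 3258 and 3715 after PBS 3 times and 3692, 2977 and 3477 after 5-FU 3 times. The 5-FU once libraries were near a common low level and the other 9 libraries overlapped, and the interaction was 1.00 ± 0.14 (SE), adjusted p = 0.0149. Slc22a3, an organic cation transporter, had 1227, 1311 and 1386 normalized counts in the PBS once libraries, 773, 775 and 818 after 5-FU once, 1242, 1389 and 1209.9 after PBS 3 times and 1403, 1419.7 and 1576 after 5-FU 3 times, with an interaction of 0.93 ± 0.11 (SE), adjusted p = 0.0149. Its 5-FU once libraries were the lowest and its 5-FU 3 times libraries the highest. Ndrg1, a gene induced by hypoxia, differed in that it fell in both rounds, with effects of -1.58 and then -0.59 and an interaction of 0.98 ± 0.14 (SE), adjusted p = 0.0170. Runx3, a transcription factor related to Runx1, fell after the first administration (-0.93) and was at 0.35 (adjusted p = 0.117) after the third, with an interaction of 1.28 ± 0.21 (SE), adjusted p = 0.0242. Dock8, an activator of Cdc42, had an interaction of 0.65 ± 0.10 (SE), adjusted p = 0.0170. Srcap, the ATPase that deposits the histone variant H2A.Z, had one of 0.76 ± 0.11 (SE), adjusted p = 0.0149, with 61.7% of its annotated exonic bases shared with other transcripts on its strand. Nkg7, a granule gene of cytotoxic lymphocytes, was the single called gene of the 7 tested from the T and NK cell list (interaction 0.82 ± 0.15 (SE), adjusted p = 0.0394). Its call was kept in 1 of 12 fits that left out a library and lost with library size alone. That list's summed level was 32.6 to 48.4 CPM after 5-FU once and 46.1 to 57.4 after 5-FU 3 times, and the part of such cells in the Nkg7 result was not tested. Pls1 (4.07), Pdcd4 (0.95), Foxj2 (0.91), Miip (0.72), Tfdp2 (0.67) and Arhgef2 (0.40) completed the 16 genes that fell after the first administration only, with the interaction given in parentheses. Kit, the receptor for stem cell factor and a sorting antigen, had 33444, 30968 and 28552 normalized counts in the PBS once libraries, 16605, 17717 and 16698 after 5-FU once, 30019, 30076 and 27264 after PBS 3 times and 22138, 20639.5 and 21769.8 after 5-FU 3 times. Kit fell in both rounds and its smaller fall after the third missed the threshold, with an interaction of 0.43 ± 0.10 (SE), adjusted p = 0.0650.

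Genes of mitosis also had interactions above 0. They rose after the third administration, and of those named here only Plk1 had also risen after the first. In mitosis the polo-like kinase PLK1 and the aurora B complex order spindle assembly, kinesin motors move the poles apart, and the NDC80 complex ties chromosomes to microtubules. Plk1 (chromosome 7, 122159439 to 122169873) had 472, 476 and 490.4 normalized counts in the PBS once libraries, 704, 681 and 533 after 5-FU once, 492, 408 and 470.5 after PBS 3 times and 1158, 1068 and 1103 after 5-FU 3 times. It rose in both rounds, with effects of 0.42 (adjusted p = 0.0201) and 1.28 (adjusted p = 6.15e-05) and an interaction of 0.86 ± 0.15 (SE), adjusted p = 0.0319. Incenp, the scaffold of the aurora B complex, had 3531, 3684 and 3412 normalized counts in the PBS once libraries, 3821, 3577 and 3636 after 5-FU once, 3280.4, 2846 and 3371 after PBS 3 times and 5755, 5417 and 6819.6 after 5-FU 3 times. The 5-FU 3 times libraries lay above the other 9, the PBS 3 times libraries were the lowest, and the interaction was 0.87 ± 0.13 (SE), adjusted p = 0.0170. Kif11, the motor that separates the spindle poles, had 919, 965 and 977 normalized counts in the PBS once libraries, 1216, 961 and 954 after 5-FU once, 865, 754 and 895 after PBS 3 times and 1679, 1438 and 1708 after 5-FU 3 times, with an interaction of 0.81 ± 0.16 (SE), adjusted p = 0.0453. Kif18b, a kinesin that shortens astral microtubules, had 534, 619 and 635 normalized counts in the PBS once libraries, 601, 590.2 and 537 after 5-FU once, 401, 438 and 536 after PBS 3 times and 1006, 869 and 1076 after 5-FU 3 times. Its effect was -0.05 (adjusted p = 0.816) after 1 administration and 1.10 (adjusted p = 1.74e-04) after 3, an interaction of 1.15 ± 0.17 (SE), adjusted p = 0.0170. Ncapd3, a subunit of condensin II, had an interaction of 0.68 ± 0.10 (SE), adjusted p = 0.0170.

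Ndc80, the outer kinetochore subunit, differed from these in that the change of its control level was called. The PBS 3 times libraries of Incenp and Kif11, and of Cenpf described below, also lay below those of PBS once, without a call. Ndc80 had 431, 383 and 441 normalized counts in the PBS once libraries, 444, 436 and 387 after 5-FU once, 280.1, 234 and 259.8 after PBS 3 times and 509, 471 and 559.8 after 5-FU 3 times. The PBS 3 times libraries were the lowest, PBS 3 times against PBS once was called at -0.70 (adjusted p = 0.0363), and 5-FU 3 times against 5-FU once was not, at 0.28 (adjusted p = 0.156). Its interaction was 0.98 ± 0.15 (SE), adjusted p = 0.0170. Nusap1, which bundles spindle microtubules, had 2406, 2699 and 2243 normalized counts in the PBS once libraries, 2364, 2287 and 2189 after 5-FU once, 2353, 1889 and 2532 after PBS 3 times and 4052, 3694 and 4468 after 5-FU 3 times, with an interaction of 0.95 ± 0.16 (SE), adjusted p = 0.0247. Cenpf, a kinetochore protein of G2 and mitosis, had 917, 789 and 931 normalized counts in the PBS once libraries, 914, 878 and 973 after 5-FU once, 730.4, 569 and 785 after PBS 3 times and 1306, 1246 and 1377 after 5-FU 3 times, with an interaction of 0.85 ± 0.16 (SE), adjusted p = 0.0453. Neither of the last 2 passed the test after the first administration, and both rose after the third. Other genes that rose after the third administration only were Kntc1 (1.27), which encodes a kinetochore protein of the spindle checkpoint, Mphosph9 (1.18), G2e3 (0.82), Mc5r (0.55) and Mfsd13a (0.64). Arap3 (1.34), a GTPase-activating protein, rose in both rounds and more after the third. Kif11, Cenpf, Plk1 and Nusap1 kept their calls in 2 to 4 of the 12 fits that left out a library, Ndc80 in 11, and Incenp, Kif18b and Ncapd3 in all 12. Plk1 and Kif11 also lost theirs after thinning, and Kif11 and Cenpf with library size alone.

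All 46 genes of the list of G2, mitosis and chromosome segregation were tested, and 5 were called in the interaction, all above 0 (Cenpf, Kif11, Ndc80, Nusap1 and Plk1). In this list 23 genes rose after the first administration and 45 after the third, and none fell. Interactions were above 0 for 44 of the 46, with a median of 0.51 against -0.00 over all genes. The proliferation marker Mki67 had 2109.8, 2067 and 2235 normalized counts in the PBS once libraries, 2498, 2278 and 2849 after 5-FU once, 1979, 1218 and 1829 after PBS 3 times and 3227, 2754 and 3785 after 5-FU 3 times. It rose after the third administration, by 0.96 (adjusted p = 0.00244), and was at 0.25 (adjusted p = 0.319) after the first. Its interaction of 0.71 ± 0.24 (SE), adjusted p = 0.184 did not pass the test. The list of DNA replication and S phase had no called gene among 45, with 30 that rose after the first and 37 after the third administration and a median interaction of 0.20.

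**Figure D3:**
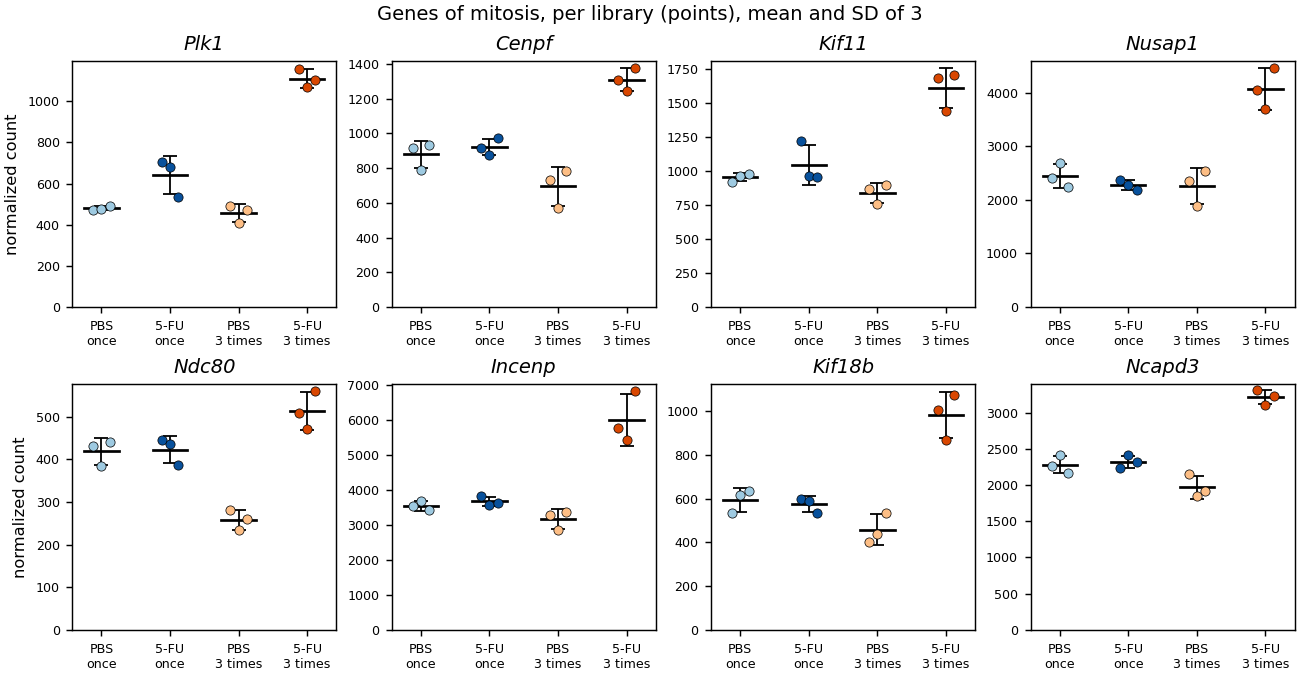
Normalized counts (y axis, linear) of 8 genes of mitosis in each of the 12 libraries (points), with the mean (horizontal line) and SD (whisker) of 3 per group on the x axis. The 5-FU 3 times libraries are the highest group in each panel, and in Plk1 the 5-FU once libraries, at 533 to 704, also lie above both PBS groups.

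The promoters of Plk1, Kif11 and Cenpf are shown because they are the called members of the mitosis list whose windows hold both TTTGAA, the core of the cell cycle genes homology region (CHR) known from promoters active in G2 and mitosis, and CCAAT, the letters read by the factor NF-Y. Capitals mark both sets of letters on either strand, and they do not overlap here. The windows run from 250 bases before to 50 after the start (RefSeq, GRCm38.p6) and lie at chr7:122159185-122159484, plus strand for Plk1, chr19:37376132-37376431, plus strand for Kif11 and chr1:189688037-189688336, minus strand for Cenpf.
Plk1: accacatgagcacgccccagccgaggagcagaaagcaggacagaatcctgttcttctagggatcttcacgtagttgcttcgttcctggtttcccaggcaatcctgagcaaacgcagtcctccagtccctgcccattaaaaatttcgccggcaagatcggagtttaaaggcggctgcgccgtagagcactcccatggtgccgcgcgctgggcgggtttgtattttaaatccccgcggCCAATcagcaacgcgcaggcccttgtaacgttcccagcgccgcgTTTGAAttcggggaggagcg
Kif11: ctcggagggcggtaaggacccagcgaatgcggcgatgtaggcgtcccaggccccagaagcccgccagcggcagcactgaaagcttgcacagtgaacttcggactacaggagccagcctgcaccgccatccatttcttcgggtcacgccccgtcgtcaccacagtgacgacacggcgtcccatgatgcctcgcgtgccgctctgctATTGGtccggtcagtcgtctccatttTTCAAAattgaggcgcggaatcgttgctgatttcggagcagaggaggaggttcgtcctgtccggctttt
Cenpf: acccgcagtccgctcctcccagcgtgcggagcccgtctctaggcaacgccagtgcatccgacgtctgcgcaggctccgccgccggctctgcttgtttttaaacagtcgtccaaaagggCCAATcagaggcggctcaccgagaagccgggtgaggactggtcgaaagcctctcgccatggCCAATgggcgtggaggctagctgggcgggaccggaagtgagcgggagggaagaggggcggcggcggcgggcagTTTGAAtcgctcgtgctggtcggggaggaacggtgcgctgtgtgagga
In Plk1 the letters TTTGAA begin at base 31 after the start, in Kif11 at 19 bases before it and in Cenpf at base 3 after it. Ndc80 held TTTGAA without CCAAT, and Nusap1 held neither. Of 38 promoters found for the list, 28 (73.7%) held TTTGAA and 30 (78.9%) CCAAT, against 18.1% and 37.9% of all 27025 promoters. Both stood in 25 of the 38 (65.8%), in 3 of the 5 called members (60%) and in 7.12% of all promoters. The share in the called members was thus near that of their list. Among 40 promoters of genes with an interaction above 0, TTTGAA stood in 22.5%, and among 34 of genes below 0, in 14.7%.

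Of the 16 genes that changed sign, 10 fell after the first administration and rose after the third, with P2ry1 among them. Fyb, an adaptor of integrin signalling in T cells and platelets, had 2954, 2754 and 2946 normalized counts in the PBS once libraries, 1909, 2228 and 2099.9 after 5-FU once, 2755, 2739 and 2274 after PBS 3 times and 3664, 3592 and 4126 after 5-FU 3 times, with an interaction of 1.02 ± 0.13 (SE), adjusted p = 0.0149. Slc14a1, the urea transporter that carries the Kidd antigen on red cells, had 5884, 6850.2 and 6839 normalized counts in the PBS once libraries, 3768, 4155 and 3820.1 after 5-FU once, 6433, 8059 and 7315 after PBS 3 times and 9432, 8226 and 8959 after 5-FU 3 times, with an interaction of 1.02 ± 0.13 (SE), adjusted p = 0.0149. In both genes the 5-FU once libraries were the lowest and the 5-FU 3 times libraries the highest. Tuba8, an alpha-tubulin, had 522, 542 and 636 normalized counts in the PBS once libraries, 417, 466 and 403 after 5-FU once, 557, 515 and 483 after PBS 3 times and 789, 865 and 855 after 5-FU 3 times, with an interaction of 1.09 ± 0.14 (SE), adjusted p = 0.0149. Smaller reversals were found in Htt (0.96), Med1 (0.74), a subunit of the Mediator complex, Setdb1 (0.61), a histone H3 lysine 9 methyltransferase, Rnf144a (0.61) and Usp38 (0.60). Esm1 also met the definition, but it was listed at 0 in all libraries of 5-FU once and of PBS 3 times and at 6.13 to 7.51 normalized counts after 5-FU 3 times. Its call was kept in 0 of 12 fits that left out a library. Against a floor of 3 counts per library it was at least 5.43-fold lower after 5-FU once than after PBS once, and at least 2.45-fold higher after 5-FU 3 times than after PBS 3 times.

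The other 6 rose after the first administration and fell after the third. Evl, a regulator of actin polymerization, had 172, 215 and 241 normalized counts in the PBS once libraries, 312, 383 and 352 after 5-FU once, 225, 314 and 237 after PBS 3 times and 151, 143 and 168 after 5-FU 3 times. The 5-FU libraries were above their controls in the first round and below them in the third, and the interaction was -1.49 ± 0.24 (SE), adjusted p = 0.0214. Slfn2, an interferon-inducible gene needed for lymphocyte quiescence, had 511, 449.9 and 487 normalized counts in the PBS once libraries, 849, 972 and 876 after 5-FU once, 493, 413 and 591 after PBS 3 times and 370.3, 425 and 304 after 5-FU 3 times, with an interaction of -1.34 ± 0.20 (SE), adjusted p = 0.0170. Mgst1, a membrane-bound glutathione transferase, had an interaction of -1.09 ± 0.20 (SE), adjusted p = 0.0394. Ppp1r3b (-1.04), a glycogen-targeting subunit of protein phosphatase 1, Psenen (-0.57), a subunit of gamma-secretase, and Tmem176a (-0.54) moved the same way by less.

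Among genes with an interaction below 0, 6 rose after both administrations, but less after the third: Hbb-bs, Hbb-bt, Selp, Nek6, Egfl7 and Il2rg. Hbb-bs and Hbb-bt encode the adult hemoglobin beta chains. Hbb-bs had 166, 214 and 132 normalized counts in the PBS once libraries, 1131, 1339 and 1222 after 5-FU once, 178, 182 and 205 after PBS 3 times and 554, 599 and 459 after 5-FU 3 times. Hbb-bt had 217, 249.7 and 178 normalized counts in the PBS once libraries, 1314, 1483 and 1358 after 5-FU once, 216, 233 and 256 after PBS 3 times and 680.2, 707 and 537 after 5-FU 3 times. Both genes were raised in every 5-FU library above every PBS library, and both stood lower after 3 administrations than after 1, with interactions of -1.33 ± 0.22 (SE), adjusted p = 0.0246 and -1.24 ± 0.19 (SE), adjusted p = 0.0170. They are near-identical copies, so their counts may be split between them and they are not independent. Neither was called in the fit of all 21 libraries (interaction of Hbb-bs, adjusted p = 0.163, and interaction of Hbb-bt, adjusted p = 0.111). The alpha-globin genes averaged 34.3 and 33.9 normalized counts and gave interactions of -2.28 (Hba-a1) and -2.46 (Hba-a2) that were not called (adjusted p = 0.595 for both). Slc4a1, the anion exchanger of red cells, was at 0 in all 12 libraries, but most of the erythroid list was detected. Of its 17 members in the data, 1 was at 0 throughout each PBS group, 2 after 5-FU once and 3 after 5-FU 3 times. Car2 was at 990 to 1503 CPM over all libraries.

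Selp, the P-selectin of platelet granules and endothelium that also marks old HSCs, had 322, 257 and 278 normalized counts in the PBS once libraries, 1189.8, 1194 and 1122 after 5-FU once, 683, 909 and 971 after PBS 3 times and 1672, 1656 and 1523 after 5-FU 3 times. Here the control level rose as well. PBS 3 times against PBS once was 1.58 (adjusted p = 0.00111) and 5-FU 3 times against 5-FU once 0.47 (adjusted p = 0.0566), so the smaller effect of the third administration (0.92 against 2.03) went with a higher PBS level. Its interaction was -1.11 ± 0.18 (SE), adjusted p = 0.0184. Ly6a, which encodes Sca-1, an antigen of the sort, had 7681, 7321 and 8072 normalized counts in the PBS once libraries, 13824, 17266 and 15219.5 after 5-FU once, 10846, 11987 and 12082 after PBS 3 times and 14306, 13826 and 12919.6 after 5-FU 3 times, and again the PBS 3 times libraries lay above PBS once. It rose after the first administration (1.01) and was at 0.23 (adjusted p = 0.0663) after the third, with an interaction of -0.77 ± 0.12 (SE), adjusted p = 0.0170. Spry1, a feedback inhibitor of receptor tyrosine kinase signalling, followed this shape with an interaction of -1.04 ± 0.18 (SE), adjusted p = 0.0310. Its PBS level was also higher after 3 injections, by 0.84 (adjusted p = 0.0363). Ubl5 (-0.47) did so too, and 54.5% of its exonic bases overlap Fbxl12 on the other strand.

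In Nek6 and Egfl7, 5-FU 3 times against 5-FU once was called below 0 (-0.73 and -0.47) and PBS 3 times against PBS once was not called (0.66, adjusted p = 0.0610, and 0.31, adjusted p = 0.147). The control level did not hold still, since the PBS 3 times libraries of both genes lay above those of PBS once. Nek6, a mitotic kinase, had 765, 638 and 838 normalized counts in the PBS once libraries, 2813, 3701 and 3433 after 5-FU once, 1077, 1255 and 1212 after PBS 3 times and 2008, 1909 and 2099 after 5-FU 3 times, with an interaction of -1.39 ± 0.17 (SE), adjusted p = 0.0149. Egfl7, a secreted protein of endothelium and the host of miR-126, had 4997, 5054 and 5212 normalized counts in the PBS once libraries, 11924, 13955 and 13758 after 5-FU once, 6756, 6576 and 5589 after PBS 3 times and 9104, 9785 and 9696 after 5-FU 3 times, with an interaction of -0.78 ± 0.12 (SE), adjusted p = 0.0170. In both, 5-FU raised the gene in each round, and the 5-FU 3 times libraries lay between the controls and 5-FU once. Csf2rb, the shared beta chain of the receptors for IL-3, IL-5 and GM-CSF, had 1027, 941 and 1186 normalized counts in the PBS once libraries, 1722, 2256 and 1776 after 5-FU once, 1009, 1349.9 and 1338 after PBS 3 times and 954, 989 and 894 after 5-FU 3 times, with an interaction of -1.25 ± 0.20 (SE), adjusted p = 0.0170. It rose after the first administration, and the 5-FU 3 times libraries overlapped those of PBS once. Il2rg, the common gamma chain of the IL-2 receptor family, rose in both rounds (0.92 and 0.47), with an interaction of -0.46 ± 0.08 (SE), adjusted p = 0.0325. Its call was kept in 2 of 12 fits that left out a library, and 30.5% of its exonic bases are shared with Gm20489 on the same strand. They were the 2 called genes of 26 tested cytokine receptors. Socs2, a feedback inhibitor of cytokine signalling, had an interaction of -1.18 and rose only after the first administration. Cebpb, a transcription factor of emergency granulopoiesis, did so too (0.91), with an interaction of -0.98 ± 0.17 (SE), adjusted p = 0.0310.

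The called genes, 0.650% of those tested, included 3 of the Serpina3 gene cluster. The cluster was in no list, and its members that were tested without a call were not counted. Serpina3f had 1919, 2091 and 1943 normalized counts in the PBS once libraries, 3816, 5114 and 4051 after 5-FU once, 2427, 2227 and 2457 after PBS 3 times and 2335, 2484 and 2261 after 5-FU 3 times. Serpina3i had 476, 439 and 461 normalized counts in the PBS once libraries, 753, 873 and 802 after 5-FU once, 567, 542 and 583 after PBS 3 times and 591, 552 and 536 after 5-FU 3 times. Both rose after the first administration and were at -0.01 and -0.01 after the third, with interactions of -1.13 ± 0.15 (SE), adjusted p = 0.0149 and -0.83 ± 0.11 (SE), adjusted p = 0.0149. Serpina3g (-0.66) was the third. These inhibitors of serine proteases are similar in sequence, so reads may be split between them. Acot1, a cytosolic acyl-CoA thioesterase, had 456, 453 and 384 normalized counts in the PBS once libraries, 849, 921 and 801 after 5-FU once, 523, 481 and 484 after PBS 3 times and 502, 546 and 518 after 5-FU 3 times, with an interaction of -0.92 ± 0.13 (SE), adjusted p = 0.0149. Sh3bp5 (-0.73) and Rpl37rt (-0.56) also rose only after the first administration.

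Other genes with interactions below 0 fell after the third administration only (13 genes) or fell in both rounds and further after the third (Meis3, Plagl1, Pde2a and Tinagl1). Ifitm1 (chromosome 7, 140967221 to 140969825), a small interferon-induced membrane protein typical of HSCs, had 21443, 20269.9 and 23061 normalized counts in the PBS once libraries, 24978, 25975 and 25578 after 5-FU once, 25483, 25611 and 31954 after PBS 3 times and 11824, 12719 and 8064 after 5-FU 3 times. The 5-FU 3 times libraries lay well below the other 9, and the effect was 0.24 (adjusted p = 0.262) after the first and -1.35 (adjusted p = 1.61e-04) after the third administration. Its interaction was -1.59 ± 0.21 (SE), adjusted p = 0.0149. Fgd5, an exchange factor used to mark HSCs, had 1378, 1123 and 981 normalized counts in the PBS once libraries, 1663, 1578 and 1401 after 5-FU once, 1150.2, 1071 and 1159.8 after PBS 3 times and 686, 877 and 632 after 5-FU 3 times, with an interaction of -1.04 ± 0.20 (SE), adjusted p = 0.0453. The call of Fgd5 was kept in 2 of 12 fits that left out a library and lost in the fit of all 21. With Ly6a they were the 3 called genes of the HSC list, all below 0. In that list of 22, 8 genes fell after the first administration and 11 after the third, and the median interaction was -0.17. Procr, which encodes the HSC marker EPCR, had 729, 759 and 759.7 normalized counts in the PBS once libraries, 946, 935 and 927 after 5-FU once, 664, 720.1 and 852 after PBS 3 times and 566, 669 and 429.7 after 5-FU 3 times. It fell after the third administration, at -0.43 (adjusted p = 0.0476), and its interaction of -0.75 ± 0.20 (SE), adjusted p = 0.101 missed the threshold. Slamf1, which encodes the sorting antigen CD150, had an interaction of 0.01 ± 0.16 (SE), adjusted p = 0.986, and its direction turned under library size alone and in 7 of 12 fits that left out a library.

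A pair of imprinted genes fell to low levels after repeated 5-FU. Plagl1, a zinc finger factor expressed from the paternal copy, had 211, 109 and 86.5 normalized counts after PBS once, 26.3, 28.5 and 26.2 after 5-FU once and 221, 92.1 and 90.0 after PBS 3 times, and it was at 0 in all 3 libraries of 5-FU 3 times. Against a floor of 3 counts per library it was at least 51.3-fold lower after 5-FU 3 times than after PBS 3 times. After 1 administration it fell by 2.32 on the log2 scale, and the fitted interaction of -7.75 ± 1.05 (SE), adjusted p = 0.0170 depends on the prior count of the fit. In the fit of all 21 libraries the SE of the interaction of Plagl1 was 3.20 and the call ended (adjusted p = 0.323). Dlk1, a Notch ligand homologue, had 153, 149.6 and 203 normalized counts in the PBS once libraries, 102, 71.7 and 142 after 5-FU once, 273, 326 and 792 after PBS 3 times and 15.8, 41.3 and 17.0 after 5-FU 3 times. One PBS 3 times library stood well above the others, and the interaction of -3.56 ± 0.66 (SE), adjusted p = 0.0394 kept its call in 3 of 12 fits that left out a library and lost it in the fit of all 21 (interaction of Dlk1, adjusted p = 0.202). Of 16 imprinted genes tested, these 2 were called, 3 fell after the first administration and 7 after the third.

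Meis3, a homeobox factor, fell in both rounds, with 462, 481 and 503 normalized counts in the PBS once libraries, 163, 148 and 161 after 5-FU once, 411, 344 and 509 after PBS 3 times and 38.5, 45.0 and 27.5 after 5-FU 3 times. Its interaction was -1.89 ± 0.26 (SE), adjusted p = 0.0149. In the fit of all 21 libraries the SE was 0.84 and the interaction of Meis3 was not called (adjusted p = 0.354). Hid1, a protein of dense core vesicle formation, had 2320.0, 2536 and 1669 normalized counts in the PBS once libraries, 2277, 2061 and 1896 after 5-FU once, 1892, 2463 and 2211 after PBS 3 times and 814, 763 and 658 after 5-FU 3 times, with an interaction of -1.49 ± 0.22 (SE), adjusted p = 0.0170. Camsap3, which binds microtubule minus ends, had 7390.0, 8615 and 6500.3 normalized counts in the PBS once libraries, 5386, 6632 and 6699 after 5-FU once, 8666, 10511 and 8448 after PBS 3 times and 2622, 3336 and 3215 after 5-FU 3 times, with an interaction of -1.32 ± 0.19 (SE), adjusted p = 0.0170. In Hid1 and Camsap3 the effect of the first administration did not pass the test and the 5-FU 3 times libraries lay below all others. Arhgef3 also fell only after the third, with an interaction of -0.86 ± 0.12 (SE), adjusted p = 0.0149. Serpinf1, which encodes PEDF, did so with an interaction of -0.87 ± 0.13 (SE), adjusted p = 0.0170. Xaf1, an interferon-stimulated regulator of apoptosis, did so with one of -0.98 ± 0.15 (SE), adjusted p = 0.0170. Xaf1 was the 1 called gene of 38 interferon-stimulated genes, of which 5 fell after the first and 13 after the third administration, with 5 of 38 interactions above 0 and a median of -0.23. Further genes that fell only after the third were Sfrp1 (-2.28), a secreted Wnt antagonist, Fndc4 (-1.67), Unc45b (-1.09), Tnfrsf18 (-0.66) and Cd63 (-0.55). Pde2a (-1.12) and Tinagl1 (-0.81) fell in both rounds, and 64.3% of the exonic bases of Pde2a are shared with another transcript on its strand.

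**Figure D4:**
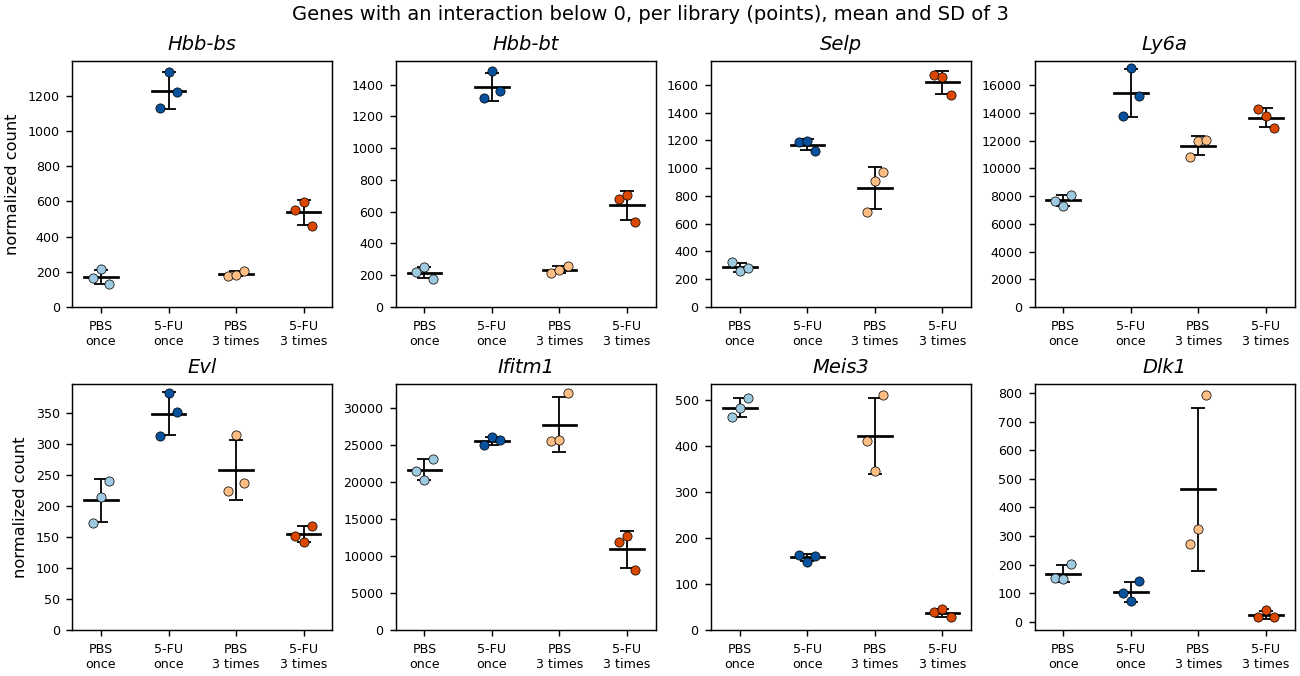
Normalized counts (y axis, linear) of 8 genes with an interaction below 0 in each of the 12 libraries (points), with the mean (horizontal line) and SD (whisker) of 3 per group on the x axis. Hbb-bs and Hbb-bt are highest after 5-FU once, PBS levels of Selp and Ly6a are higher after 3 injections than after 1, and Ifitm1, Meis3 and Dlk1 are lowest after 5-FU 3 times.

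Several process lists shifted by small amounts with few or no called genes. The counts for these lists and those above stand beside the shares over all genes tested. Of all genes, 11.7% rose and 10.3% fell after the first administration, and 12.8% rose and 10.4% fell after the third. Interactions were above 0 for 6604 of all 13227 genes. All 78 cytosolic ribosomal protein genes had interactions below 0, with a median of -0.18, and none was called. Of these, 18 rose after the first administration and 1 after the third, when 2 fell. Of 70 genes of oxidative phosphorylation, 69 had interactions below 0 and none was called, with a median of -0.20. In that list 41 rose after the first and 17 after the third administration. The 26 glycolysis genes had no called gene and a median of -0.08, with 9 that rose after the first and 8 after the third. The 47 DNA repair genes had no called gene and a median of 0.15, and 8 rose after the first administration and 21 after the third. The medians of the ribosomal protein, oxidative phosphorylation and mitosis lists kept their sign under both other scalings, as did those of the HSC, interferon and DNA repair lists. Their sizes are less certain: of 45 lists, 27 had a median that shifted under either scaling by at least its spread between replicates. Genes of 1 list are not independent, and the medians carry no test.

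**Figure D5:**
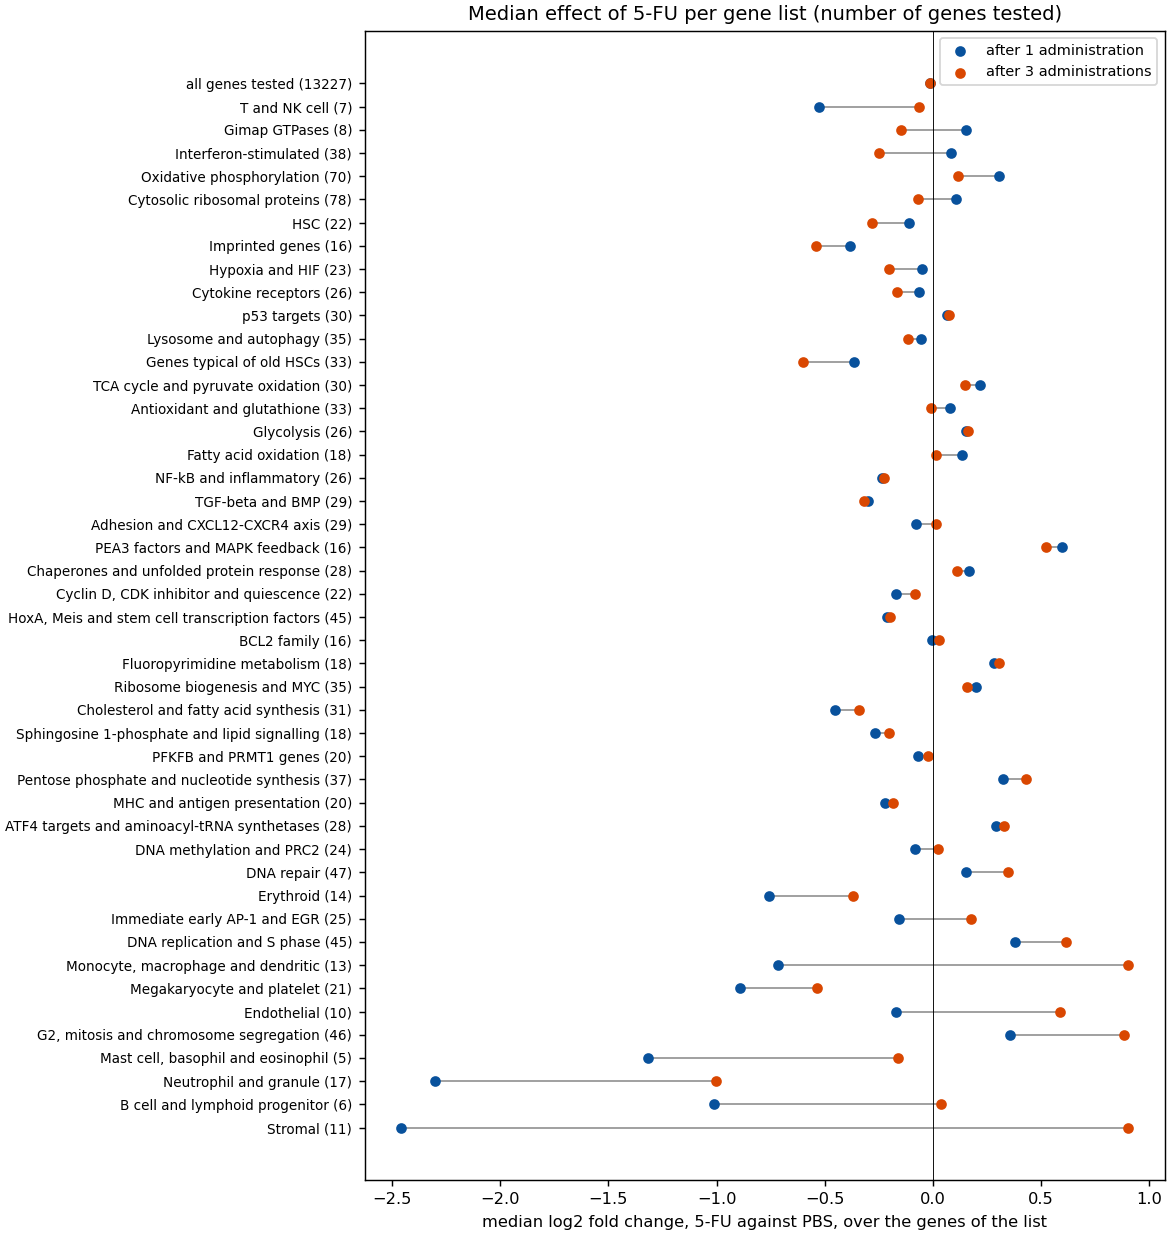
Each row is a gene list with the number of genes tested, and the points give the median log2 fold change of 5-FU against PBS (x axis) after 1 administration (blue) and after 3 (orange). The rows are ordered by the median interaction below the row of all genes. The mitosis list moves from 0.35 to 0.88 and oxidative phosphorylation from 0.31 to 0.12. The stromal list, with 11 genes tested and none called, moves furthest, from -2.46 to 0.90.

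For the glycolytic regulators named in the study, no interaction was called, which does not show that the responses were equal. Pfkfb3, an enzyme that makes an activator of glycolysis, had 5094, 4144 and 4599 normalized counts in the PBS once libraries, 3428, 4423 and 3647 after 5-FU once, 4366, 4426 and 4714 after PBS 3 times and 4565, 4151 and 4733 after 5-FU 3 times. All 4 groups overlapped, and its interaction was 0.26 ± 0.15 (SE), adjusted p = 0.451. Prmt1, the arginine methyltransferase that acts on PFKFB3, had 3269, 3314 and 3204 normalized counts in the PBS once libraries, 4603, 5132 and 5003 after 5-FU once, 3519, 3379 and 3234 after PBS 3 times and 5261, 5349 and 5354 after 5-FU 3 times. It rose in both rounds (0.59 and 0.66), with an interaction of 0.07 ± 0.08 (SE), adjusted p = 0.778. Interactions of Pfkfb1 (-0.08 ± 0.66), Pfkfb2 (0.35 ± 0.29) and Pfkfb4 (0.39 ± 0.25) did not pass the test either, with adjusted p from 0.522 to 0.973.

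Among genes of marrow stroma, Cxcl12, the niche chemokine that retains HSCs, had 477, 1991 and 1174 normalized counts in the PBS once libraries, 35.9, 73.8 and 11.9993 after 5-FU once, 0, 0 and 299 after PBS 3 times and 663, 316 and 417 after 5-FU 3 times. The PBS 3 times group held 2 libraries at 0 and 1 at 299, and the interaction of 7.15 ± 1.77 (SE), adjusted p = 0.0824 passed the threshold in 1 of 12 fits that left out a library. All 11 stromal genes tested had interactions above 0 and none was called. The summed level of the stromal list was 63.6 to 144 CPM after PBS once, 10.99 to 14.7 after 5-FU once, 37.0 to 63.5 after PBS 3 times and 29.7 to 52.5 after 5-FU 3 times, with Col3a1 and Dcn at 0 in every group. Pald1, a phosphatase-like gene in no list that was called above 0, was at 0 in all PBS 3 times libraries and at 81.4, 84.4 and 194 normalized counts after 5-FU 3 times, at least 42.2-fold higher against a floor of 3 counts per library. Before scaling, its counts were 69, 15 and 88 in the PBS once libraries and 94, 42 and 12 after 5-FU once. The PBS 3 times control was thus the group that stood apart.

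HSCs were also collected on day 21 after 5-FU once and after 5-FU 3 times. No PBS group of that day was analysed here, so the interaction could not be formed. The 5-FU 3 times against 5-FU once comparison at that day called 16 of 13571 genes (0.118%), 0.0811% higher and 0.0368% lower. Of the 86 genes, 48 (55.8%) had the same sign there as their interaction at day 6, against 45.5% of 13225 genes tested at both days, and 1 of the 86 was called. That gene was Evl, at 165, 277 and 154 normalized counts after 5-FU once and 65.5, 52.5 and 86.0 after 5-FU 3 times, a difference of -1.55 ± 0.24 (SE), adjusted p = 0.0129. Evl was lower after 5-FU 3 times than after 5-FU once on both days, and the others of the 86 were not called at day 21 with 3 libraries per group.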

How the data were processed

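RNA from sorted mouse HSCs was amplified with SMART-Seq v4, which does not keep strand, and Nextera XT libraries were sequenced single-end. Per the labels and the study's methods, the authors aligned reads with TopHat 2.0.13 to mm10 and used Cufflinks 2.2.1. The deposited values are whole-number counts per gene, and the tool that counted them is not given in the sources used here. The members, gene lists and tests were chosen with earlier results of these data known.

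Genes were kept by edgeR's filterByExpr (13227 of 21000). The 12 libraries were scaled by TMM and fitted with 1 mean per group (edgeR 4.0.16, limma 3.58.1, R 4.3.3), and the interaction and each effect were tested by the quasi-likelihood F test at an adjusted p of 0.05. A SE is the size of the log2 fold change divided by the square root of F. Named genes were the 15 smallest p-values in each direction with a mean of at least 100 normalized counts, called genes of a list, called genes whose 2 effects were called with opposite signs, and 11 genes fixed by name. Gp5 was added after its values were seen.

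Same-numbered libraries did not deviate together (r from -0.015 to 0.00724 over 6 pairs), so numbers were not used as pairs. No 2 libraries of a group agreed within sampling noise. The p-values measure the spread between 3 libraries per group. Of the symbols, 97.61% matched GENCODE release 21. Alternatives were other scalings, filters, fits, DESeq2 1.42.0, thinning, 2 forms of replicate block and leaving out each library. Scripts were tested on simulated data.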

Additional observations from a re-analysis of the deposited data

Results flagged for a closer look

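The effect of 5-FU differed between the first and the third administration in 86 genes by the test of the difference itself, edgeR's quasi-likelihood F test of the interaction with Benjamini-Hochberg adjustment. Of these, 60 were named by the rule, and their interactions are given here in parentheses on the log2 scale. Among those above 0, the call was kept in each of the 12 fits that left out a library for Mfsd2b (3.12), P2ry1 (1.40), Itga2b (1.20), Kif18b (1.15), Hemgn (1.10), Tuba8 (1.09), Slc14a1 (1.02), Fyb (1.02), Cdk6 (1.00), Ndrg1 (0.98), Slc22a3 (0.93), Incenp (0.87), Srcap (0.76), Ncapd3 (0.68) and Dock8 (0.65). The call was lost in 1 or more of these fits for the following, each with the number of the 12 fits that kept it after its interaction, namely Esm1 (13.02, 0), Gp1bb (2.35, 2), Treml1 (2.00, 9), Aqp1 (1.42, 1), Runx3 (1.28, 5), Ndc80 (0.98, 11), Htt (0.96, 5), Nusap1 (0.95, 4), Plk1 (0.86, 4), Cenpf (0.85, 4), Nkg7 (0.82, 1), Kif11 (0.81, 2), Med1 (0.74, 3), Setdb1 (0.61, 2), Rnf144a (0.61, 5) and Usp38 (0.60, 2). Among those below 0, the call was kept in each of the 12 fits for Plagl1 (-7.75), Meis3 (-1.89), Ifitm1 (-1.59), Hid1 (-1.49), Nek6 (-1.39), Slfn2 (-1.34), Camsap3 (-1.32), Serpina3f (-1.13), Acot1 (-0.92), Arhgef3 (-0.86), Serpina3i (-0.83), Egfl7 (-0.78) and Psenen (-0.57). It was lost in 1 or more of them, with the number that kept it given likewise, for Dlk1 (-3.56, 3), Evl (-1.49, 8), Hbb-bs (-1.33, 6), Csf2rb (-1.25, 11), Hbb-bt (-1.24, 11), Selp (-1.11, 10), Mgst1 (-1.09, 4), Ppp1r3b (-1.04, 4), Fgd5 (-1.04, 2), Spry1 (-1.04, 4), Xaf1 (-0.98, 11), Cebpb (-0.98, 6), Serpinf1 (-0.87, 11), Ly6a (-0.77, 11), Tmem176a (-0.54, 1) and Il2rg (-0.46, 2). The values of Esm1 and Plagl1 depend on the prior count of the fit, since a group of each was at 0. Leaving out a library was not the only alternative: Plagl1, Dlk1, Meis3, Hbb-bs, Csf2rb, Hbb-bt, Mgst1, Fgd5, Spry1, Cebpb, Psenen, Usp38, Setdb1, Ncapd3, Cenpf, Htt, Treml1 and Esm1 lost their calls in the fit of all 21 libraries, and all 60 lost them with the replicate number as a block within each round. Thinning ended the calls of Aqp1, Dlk1, Esm1, Kif11, Plk1 and Tmem176a. Library size alone ended those of Cenpf, Kif11, Nkg7 and Rnf144a, and RLE size factors that of Setdb1.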

How the results depend on the processing

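For the interaction, the count of 86 was 88 with RLE size factors, 111 with library size alone, 84 with all genes of at least 1 count, 100 with at least 10 counts in every library, 79 in a single fit of all 21 libraries, which shared 55 with the 86, and 84 after thinning to the smallest total. DESeq2 called 715, which held all 86, and it also called 544 genes for PBS 3 times against PBS once, 1417 for 5-FU 3 times against 5-FU once at day 6 and 155 for that comparison at day 21, where 6 libraries fitted alone gave 1. With the replicate number as a block within each round the count of interactions was 0, with 1793 genes at an unadjusted p under 0.05, and the blocked counts were 2134 for the effect of 5-FU after 1 administration and 2494 for the effect of 5-FU after 3 administrations. Comparisons between rounds lie between such blocks and could not be fitted with them. A block with the same numbers shared by all groups, chosen after seeing the data, gave an interaction count of 55 (46 of them among the 86), 1 for PBS 3 times against PBS once and 345 for 5-FU 3 times against 5-FU once, day 6. The numbers did not pair the libraries, so calls lost under the block are not read as weaker effects, and the cause was not tested.

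Leaving out single libraries gave 38 (without PBS once replicate 1) to 170 interactions (without 5-FU 3 times replicate 2), and 51 and 56 without 5-FU once replicates 2 and 3 and 53 and 57 without 5-FU 3 times replicates 1 and 3. The ranges were 1863 to 2963 after 1 administration, 2114 to 2955 after 3, 1 to 22 between the PBS groups, 236 to 530 between the 5-FU groups and 5 to 14 at day 21. Of 60 called and named genes, 28 kept the call in every fit that left out a library. Only Pfkfb1 and Slamf1, neither called, changed sign. The interaction of Pfkfb1 was 0.091 with the replicate block within rounds, 0.11 with the shared block and -0.46 to 0.31 without single libraries, and the interaction of Slamf1 was -0.049 with library size alone and -0.063 to 0.11 without single libraries.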

Other observations

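PBS 3 times against PBS once called 17 of 13227 genes (0.129%), chosen here after their values were seen, and 1 with replicate numbers shared by all groups as a block. Genes higher after 3 injections of PBS included Selp (1.58 on the log2 scale), Ly6a (0.60) and Ly6e (0.37), a relative of Ly6a, Ifi27 (0.75), an interferon-stimulated gene, Spry1 (0.84) and Plscr2 (1.84). Bank1, a B-cell scaffold protein, was lower (-2.60), as were Ndc80 (-0.70) and Acin1 (-0.39). Adjusted p was 0.00111 for Selp and 0.0363 to 0.0437 for the others by edgeR's quasi-likelihood F test. Mice given PBS 3 times were also older at collection, so age, injections and any preparation batch that went with the round cannot be told apart.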
